A study of Danio rerio with 18 samples.

Results

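Ribose methylation of ribosomal RNA was compared between 2 libraries of adult zebrafish tail (trunk) and 3 libraries of protruding-mouth larvae. These 5 libraries were taken by their stage labels from the 14 RiboMeth-seq libraries of a series of 18 samples. Each was read at the 98 sites that the authors list, of which 60 belong to 28S, 35 to 18S and 3 to 5.8S rRNA. The other 9 RiboMeth-seq libraries, 3 each of unfertilized egg, 32-cell embryos and 12-somite embryos, entered the fit and are given beside some results. The 4 small-RNA samples of the series were not used here. No allele, agent or treatment is named for either stage, and neither the strain, the adult's age nor the number of animals behind a library is given in the labels. The larval label names a stage and the adult label names a body part as well, so what belongs to growth and what to the part of the body cannot be told apart in any difference below. The libraries hold fragments of rRNA, so no marker gene was available to check the labelled tissue.

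Zebrafish carry an early (maternal) and a late (somatic) type of rRNA. Reads of the protruding-mouth and adult libraries were placed by the authors on the late type, whereas those of egg, 32-cell and 12-somite libraries were placed on the early type. The comparison of adult tail with the larva was therefore made on the late reference in both stages. The shared reference does not fix the type of the RNA itself. Reads from stretches that are the same in both types cannot be told apart by it. How much early-type rRNA the larval or adult libraries hold was not tested. The larval and adult sheets give the same letter at all but 1 of 6152 positions, 18S position 1270 (C1270U, larval letter first).

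As background, most 2'-O-methyl groups of rRNA are placed by fibrillarin, the methyltransferase of box C/D small nucleolar ribonucleoproteins, and each guide RNA pairs with the rRNA to choose the nucleotide. A methylated ribose resists alkaline cleavage, so RiboMeth-seq reads methylation as a lack of read ends at a position relative to its neighbours. The RiboMeth-seq score runs from 0, where read ends are as frequent as at the neighbours, to 1, where none is seen. It is a relative measure of the methylated share of molecules and was not calibrated here. Sites carry the authors' names, which follow the human numbering, and positions are those of the zebrafish late rRNA counted from 1.

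Scores were higher in adult tail at 3 sites and lower at 3 sites by limma with an adjusted p under 0.05. The sequences around 5 of these 6 sites are shown because the results turn on them. Each is late rRNA as deposited, 5′ to 3′, with 10 nucleotides on each side and the methylated nucleotide as the capital.
5.8S-Um14: cucuuagcggUggaucacucg
28S-Gm2817: cuggcguguuGgaacaaggca
28S-Um4276: ugauuuucagUaugaguacgg
18S-Um287: ccggccgcuuUggugacucua
18S-Am1637: cccaucaacgAggaauuccca
They lie at position 14 of 5.8S rRNA, at positions 2249 and 3424 of 28S rRNA and at positions 297 and 1656 of 18S rRNA, in the order printed. No motif was searched in them, and no guide RNA was given with the data.

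The larval libraries held 6167658, 14995356 and 7067258 read ends and the adult libraries, called A and B, 1494730 and 7352774. Adult library A was thus the shallowest of the 5, with a lowest flanking mean of 61 read ends, at 5.8S-Um14. Adult library A carried the sequencing barcode of larval library 2, and adult library B that of larval library 3, while larval library 1 had a barcode found in neither adult library. The authors corrected some stage means for a barcode effect, so differences within each shared barcode are given beside the results. In the scores as computed, 12 sites had a larval standard deviation of at least 0.1 and 8 had an adult one of that size. Replicates were biological per the labels, and each stage mean compared rests on 3 larval or 2 adult libraries, while the limma p-values also use the spread within the other stages.

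The typical site was near full methylation in both stages. The median score over the 98 sites was 0.951, 0.926 and 0.926 in the larval libraries and 0.945 and 0.942 in the adult libraries. The adult values lay inside the larval range. The stage means of this median were 0.934 ± 0.0147 (SD, n = 3) and 0.943 ± 0.00218 (SD, n = 2), with a two-sided exact permutation p of 0.6, where 0.2 is the smallest that the 10 arrangements allow. Stage means of at least 0.75, called full here, were found at 87 sites in the larva and 92 in adult tail, with 85 full in both. The larval mean alone was below 0.75 at 7 sites, and the adult mean alone at 18S-Am1678 and 28S-Cm3820. Both means were below it at 18S-Um354, 18S-Gm436, 18S-Cm1272 (named after its values were seen) and 28S-Um4272. From 5′ ends alone their larval means were 0.288, 0.609, 0.410 and 0.994, in that order, so the last depends on the ends counted. All these counts use scores without barcode correction. After correction the adult mean of 18S-Gm436 was 0.929, and the larval means of 28S-Um3904 and 28S-Gm3923, which are among the 7, were 0.958 and 0.930. At 71 of 98 sites the stage means were within 0.05 of each other, and the median adult minus larval difference was 0.00642.

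**Figure D1:**
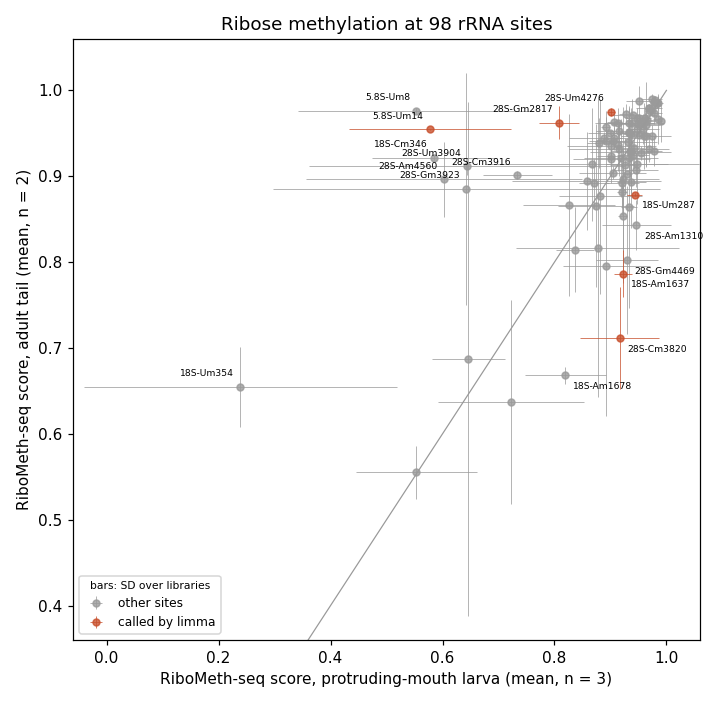
Adult tail mean score (n = 2) against protruding-mouth mean score (n = 3) at the 98 sites, both without unit, with the SD over libraries as bars, called sites in colour and a line of equal scores. Most points sit in the upper right corner near the line, and the farthest above it have larval means under 0.75.

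Limma called 6 of 98 sites (6.12%), with 3 higher (3.06%) and 3 lower (3.06%) in adult tail, and 13 sites had an unadjusted p under 0.05. The adult and larval libraries did not overlap at 33 sites (33.7%), with the adult pair higher at 19 (19.4%) and lower at 14 (14.3%). All 6 called sites are among these 33. Of the 10 arrangements of the labels of 2 and 3 libraries, a share of 0.2 separates the groups fully. Such sites would therefore occur without any difference between the stages. Stage means at least 0.1 apart were found at 14 sites (14.3%), 9 with the adult mean higher and 5 with it lower. The calls rest on a spread shared by all 14 libraries. In a limma fit of the 5 libraries alone, 0 sites (0%) passed, 15 had an unadjusted p under 0.05, and the lowest adjusted p among the 6 sites was 0.121. With either adult library, larval library 1 or 3, or 32-cell library 3 left out of the full fit, 0 sites passed, with 8 to 14 at an unadjusted p under 0.05, so each call should be read with its values by library.

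In 5.8S rRNA, 5.8S-Um14 rose from partial to near full score. This site lies near the 5′ end of the molecule, in the part that pairs with 28S rRNA, and in human cells it is guided by SNORD71. The larval libraries scored 0.416, 0.621 and 0.695, and the adult libraries 0.954 and 0.955. Both adult libraries were thus far above each larval library, and the 3 larval libraries differed among themselves more than the adult libraries did. The adult minus larval difference was 0.377 with a standard error of 0.0907 and an adjusted p of 0.0351 (limma). The score of adult library A rests on 3 read ends where 65.2 were expected, which gives a 95% exact Poisson interval of 0.866 to 0.991, and that of library B on 23 where 511.6 were expected (0.933 to 0.971). These intervals cover only the counting error of the ends at the site, with the expected number held fixed. They lie above the larval intervals, of which the highest, in library 3, runs from 0.677 to 0.713. Within the shared barcodes the differences were 0.333 (library A against larval library 2) and 0.260 (library B against larval library 3). With barcode as a block the difference was smaller, at 0.298 (limma adjusted p = 0.000914). That fit also estimates terms for the barcodes, so fewer degrees of freedom remain for the spread than in the main fit.

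The neighbouring site 5.8S-Um8, whose window is caacucuUagcgguggau from the first nucleotide of the molecule, had the largest difference of the 98 sites but did not pass the test. The larval libraries scored 0.480, 0.388 and 0.791 and the adult libraries 0.974 and 0.978. Both adult libraries were above the highest larval library, and the larval libraries spread widely. The difference was 0.423 with a standard error of 0.125 (limma adjusted p = 0.0800), and it passed on the logit scale (limma adjusted p = 0.00292). Within the shared barcodes the differences were 0.586 and 0.187, and with barcode as a block the site did not pass (limma adjusted p = 0.214). Because Um8 and Um14 are 6 nucleotides apart, each is among the flanking positions from which the other's score is computed. The larval mean of 5.8S-Um8 was 0.553 ± 0.211 (SD, n = 3), the same from 5′ ends alone as from both ends. That of 5.8S-Um14 was 0.563 ± 0.168 (SD, n = 3) from 5′ ends alone and 0.577 ± 0.145 (SD, n = 3) from both. Fragments were 20 to 40 nt long, so one that starts within 5.8S rRNA cannot have its 3′ end at 5.8S-Um8 or its flanking positions. At 5.8S-Um14 only the far edge of the flanking positions can hold such 3′ ends. The likeness of these means was therefore largely built in. It does not test whether the larval scores depend on the ends counted. The third site of this RNA, 5.8S-Gm75, scored 0.962, 0.826 and 0.916 in the larva and 0.900 and 0.941 in adult tail, so its adult libraries lay inside the larval range (difference 0.0189, limma adjusted p = 0.922).

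In 28S rRNA, 28S-Gm2817 and 28S-Um4276 rose in adult tail. The larval scores of 28S-Gm2817 were 0.812, 0.842 and 0.771 and its adult scores 0.976 and 0.949. The site was thus full in both stages by the limit of 0.75, and the gap between the highest larval and the lowest adult library was wider than the range of either stage. The difference was 0.154 with a standard error of 0.0362 (limma adjusted p = 0.0351), and within the shared barcodes it was 0.134 and 0.178. With barcode as a block the limma adjusted p was 0.130. 28S-Um4276 had tight replicates, with larval scores of 0.896, 0.897 and 0.909 and adult scores of 0.978 and 0.972. Its difference was 0.0743 with a standard error of 0.0168 (limma adjusted p = 0.0351), and within the shared barcodes it was 0.0811 and 0.0630, with a limma adjusted p of 0.118 when barcode was a block. On the logit scale the limma adjusted p was 0.00499 for 28S-Gm2817 and 0.0690 for 28S-Um4276. The listed site 28S-Um4272, at position 3420, is among the flanking positions from which the score of 28S-Um4276 is computed. From 5′ ends alone the larval mean of 28S-Um4276 was 0.932 ± 0.0400 (SD, n = 3), a wider spread than the 0.00713 from both ends.

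28S-Cm3820 showed the largest fall. The larval libraries scored 0.984, 0.844 and 0.921 and the adult libraries 0.669 and 0.754. The adult pair lay below each larval library, and the adult mean of 0.712 ± 0.0598 (SD, n = 2) was under the limit of 0.75 that the larval mean of 0.916 ± 0.0705 (SD, n = 3) passed. The difference was -0.205 with a standard error of 0.0475 (limma adjusted p = 0.0351). The differences within the shared barcodes were -0.174 and -0.167, and with barcode as a block the limma adjusted p was 0.0674. The 95% counting intervals of adult library B (0.717 to 0.787) and larval library 2 (0.802 to 0.878) did not meet. On the logit scale the site did not pass (limma adjusted p = 0.124). From 5′ ends alone the larval mean of 28S-Cm3820 was 0.995 ± 0.00455 (SD, n = 3), above that from both ends and with a smaller spread. No adult score from 5′ ends alone was computed, so whether the fall depends on the ends counted was not tested.

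In 18S rRNA, 18S-Um287 and 18S-Am1637 fell, the first in the 5′ domain and the second in the 3′ domain of the small subunit. The larval scores of 18S-Um287 were 0.939, 0.958 and 0.932 and its adult scores 0.877 and 0.880. The fall was small in size, and the adult pair was tight. The difference was -0.0648 with a standard error of 0.0151 (limma adjusted p = 0.0351). Adult library A has 15 read ends at this site, with a 95% counting interval of 0.797 to 0.931 that reaches the intervals of larval libraries 1 (0.924 to 0.952) and 3 (0.910 to 0.950), whereas that of adult library B (0.853 to 0.903) does not reach any larval interval. The adjacent site 18S-Um286, named after its values were seen, scored 0.966, 0.950 and 0.926 in the larva and 0.947 and 0.962 in adult tail, so its adult libraries lay inside the larval range.

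18S-Am1637 scored 0.926, 0.904 and 0.936 in the larval libraries and 0.768 and 0.806 in the adult libraries. The adult pair lay below all larval libraries by more than the range within either stage. The difference was -0.136 with a standard error of 0.0338 (limma adjusted p = 0.0370). It was nearly the same within the shared barcodes, at -0.137 and -0.130, and with barcode as a block the limma adjusted p was 0.0239. For 18S-Um287 the differences within the shared barcodes were -0.0812 and -0.0525, with a limma adjusted p of 0.0674 when barcode was a block. On the logit scale neither fall passed (limma adjusted p = 0.411 for 18S-Um287 and 0.132 for 18S-Am1637).

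**Figure D2:**
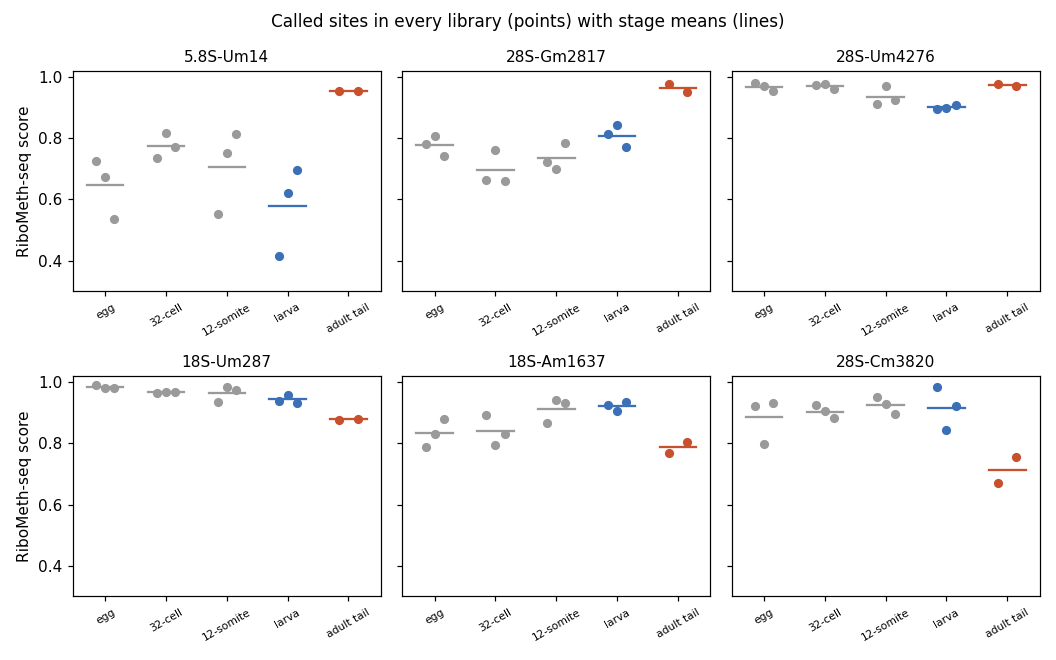
RiboMeth-seq score (vertical axis, no unit) of each of the 14 libraries at the 6 called sites, as points by stage from egg to adult tail (horizontal axis), with stage means as lines. The adult points do not overlap the larval points at any of these sites, and the larval points of 5.8S-Um14 span 0.416 to 0.695.

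The earlier stages place these changes differently from site to site. They were read on the early rRNA, so the values are set side by side without a test, and all are scores without barcode correction. At 5.8S-Um14 the 9 earlier libraries scored between 0.537 and 0.817, all below both adult libraries. At 28S-Gm2817 they scored between 0.661 and 0.808, also all below adult tail. The adult pair was above all 12 other libraries at 7 of 98 sites (7.14%), namely 18S-Cm346, 18S-Um354, 28S-Am2350, 28S-Gm2817, 28S-Cm3916, 5.8S-Um8 and 5.8S-Um14. Of these, 28S-Am2350 was named after its values were seen, and its stage means were 0.979 and 0.989. At 28S-Um4276, by contrast, the larva was the low stage: the earlier libraries scored 0.911 to 0.981 and overlapped adult tail. The larval libraries were below all 11 others at 2 sites (2.04%), 18S-Um428 and 28S-Um4276, and above all others at 0 sites (0%).

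Among the falls, 28S-Cm3820 and 18S-Um287 had adult scores below all 12 other libraries, the only such sites of the 98 (2.04%) without barcode correction. The earlier libraries scored 0.798 to 0.951 at 28S-Cm3820 and 0.934 to 0.992 at 18S-Um287. 18S-Am1637 differed from these, since its egg libraries scored 0.788, 0.832 and 0.879 and its 32-cell libraries 0.892, 0.796 and 0.829, a range that overlaps adult tail. The 12-somite libraries, at 0.868, 0.941 and 0.931, lay above adult tail. The windows of the 2 18S sites differ between the rRNA types, and the early ones are shown for comparison with the late ones above.
18S-Um287 early: ggccucgcuuUggugacucua
18S-Am1637 early: cccgagaacgAggaauuccca
The windows shown for 5.8S-Um14, 28S-Gm2817 and 28S-Um4276 are the same in both types. The part of the reference sequence in the difference from earlier stages was not tested.

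Several large differences did not pass the test, and at most of these sites the larval libraries were far apart from each other. 18S-Cm346 and 18S-Um354 are a pair of sites 8 nucleotides apart in the 5′ domain of 18S rRNA, at positions 356 and 364, and their windows overlap.
18S-Cm346: acgauucauuCgaaugucugc
18S-Um354: uucgaaugucUgcccuaucaa
18S-Cm346 scored 0.666, 0.632 and 0.458 in the larva and 0.924 and 0.919 in adult tail. The adult pair was higher than each larval library, and the difference was 0.336 (limma adjusted p = 0.158). The larval mean was 0.769 ± 0.140 (SD, n = 3) from 5′ ends alone and 0.585 from both ends, so it depends on the ends counted. No adult score from 5′ ends alone was computed. 18S-Cm346 passed with barcode as a block (limma adjusted p = 0.0198) and on the logit scale (limma adjusted p = 0.0383). 18S-Um354 scored 0, 0.546 and 0.170 in the larva and 0.687 and 0.622 in adult tail. The larval libraries covered a wider span than the distance to the adult pair, and the difference of 0.416 had a standard error of 0.144 (limma adjusted p = 0.158). Here the larval mean was 0.288 ± 0.370 (SD, n = 3) from 5′ ends alone and 0.239 from both ends.

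28S-Am4560 scored 0.556, 0.382 and 0.869 in the larva and 0.866 and 0.927 in adult tail, so larval library 3 overlapped the adult pair. Its difference was 0.294 (limma adjusted p = 0.579), and within the shared barcodes it was 0.484 and 0.0582. The larval mean of 28S-Am4560 was 0.776 ± 0.151 (SD, n = 3) from 5′ ends alone and 0.602 from both ends. 28S-Cm3916 scored 0.779, 0.757 and 0.663 in the larva and 0.898 and 0.904 in adult tail. Here the libraries did not overlap, but the difference of 0.168 had a standard error of 0.122 in the fit over all stages and did not pass (limma adjusted p = 0.589). The larval mean of 28S-Cm3916 was nearly the same from 5′ ends alone (0.730) as from both ends (0.733). 18S-Um428 came nearest to the threshold of the sites not called, with larval scores of 0.892, 0.918 and 0.911, adult scores of 0.973 and 0.955, and a difference of 0.0568 (limma adjusted p = 0.0672). The other rises among the 12 largest not called were between 0.0505 and 0.0651 at 18S-Um121, 28S-Cm2352, 28S-Am3804 and 28S-Cm3866, or belonged to the sites with barcode-corrected means described further on.

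Among the falls that did not pass, 18S-Am1678 and the A-loop nucleotide 28S-Gm4469 had the largest differences. 18S-Am1678 scored 0.782, 0.903 and 0.773 in the larva and 0.661 and 0.675 in adult tail. The adult pair was the lower one throughout, and the difference was -0.151 (limma adjusted p = 0.464). Of the other libraries only 32-cell library 2, at 0.591, was lower still. That value is uncorrected, and the authors' corrected 32-cell mean is matched when it is put at 1. The larval mean of 18S-Am1678 was 0.962 ± 0.0259 (SD, n = 3) from 5′ ends alone and 0.819 from both ends, so it depends on the ends counted. The A-loop of 28S rRNA receives the end of the aminoacyl-tRNA, and in yeast the counterpart of 28S-Gm4469 is methylated by the free-standing enzyme Spb1. 28S-Gm4469 scored 0.984, 0.875 and 0.929 in the larva and 0.742 and 0.864 in adult tail. Adult library B was close to larval library 2, and the difference of -0.127 did not pass (limma adjusted p = 0.158). The larval mean of 28S-Gm4469 was 0.989 ± 0.00497 (SD, n = 3) from 5′ ends alone and 0.929 from both ends. The adjacent nucleotide of the same loop, 28S-Um4468, scored 0.967, 0.968 and 0.971 against 0.982 and 0.976, a difference of 0.0107 (limma adjusted p = 0.784).

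28S-Am1310 scored 0.968, 0.995 and 0.877 in the larva and 0.863 and 0.822 in adult tail, a difference of -0.104 (limma adjusted p = 0.277). 18S-Cm1703, which lies in the decoding centre of the small subunit, scored 0.985, 0.988 and 0.962 in the larva and 0.942 and 0.917 in adult tail. Its libraries did not overlap, but the difference was only -0.0487 (limma adjusted p = 0.518). At 28S-Gm1509 and 28S-Cm3848 adult library A alone was low, at 0.781 and 0.798, while adult library B, at 0.947 and 0.908, lay inside or near the larval range. 28S-Am389, 28S-Cm2338 and 28S-Cm4983 differed by -0.0392, -0.0383 and -0.0435. At 28S-Um4272, which scored 0.855, 0.595 and 0.715 in the larva and 0.721 and 0.553 in adult tail, the stages overlapped (difference -0.0846).

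**Figure D3:**
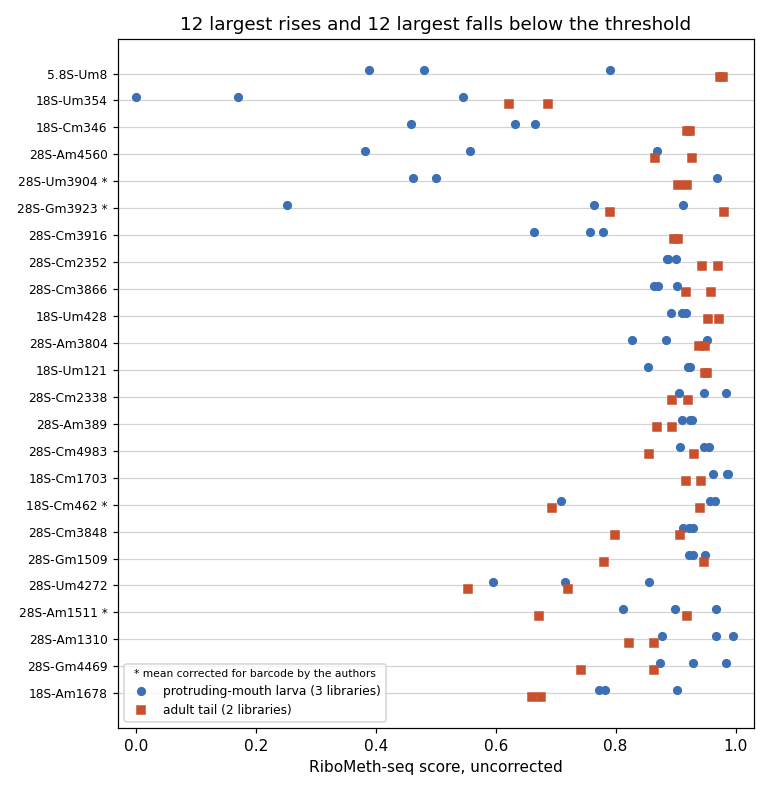
RiboMeth-seq score (0 to 1, no unit) of each protruding-mouth and adult tail library at the 12 largest rises and 12 largest falls that did not pass the test, with stars at sites whose mean the authors corrected for barcode. The adult points lie close together at 5.8S-Um8 and 18S-Cm346, while the larval points of 18S-Um354 run from 0 to 0.546.

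Differences were then taken within each shared barcode, library A against larval library 2 and library B against larval library 3. Both differences were above 0 at 45 sites and below 0 at 27, and at 26 sites they had opposite signs. Both were at least 0.1 at 7 sites, namely 5.8S-Um8, 5.8S-Um14, 18S-Cm346, 18S-Um354, 28S-Gm2817, 28S-Um3904 and 28S-Cm3916. Both were at most -0.1 at 18S-Am1637 and 28S-Cm3820. With barcode as a block in the limma fit, 4 sites passed (4.08%): 5.8S-Um14, 18S-Cm346 and 28S-Um3904 with higher and 18S-Am1637 with lower adult scores. Over all sites, the mean absolute difference between libraries was 0.0622 to 0.0694 for pairs of larval libraries and 0.0467 for the adult pair. It was 0.0622 to 0.0827 between a larval and an adult library, and the lowest of these, for larval library 3 and adult library B, came from a pair with the same barcode. The median absolute difference was 0.0239 to 0.0364 for pairs of larval libraries and 0.0242 for the adult pair. Between a larval and an adult library it was 0.0281 to 0.0451. At the typical site, pairs across the stages thus overlapped larval pairs and lay above the adult pair. A pair across the stages also holds the difference between libraries.

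**Figure D4:**
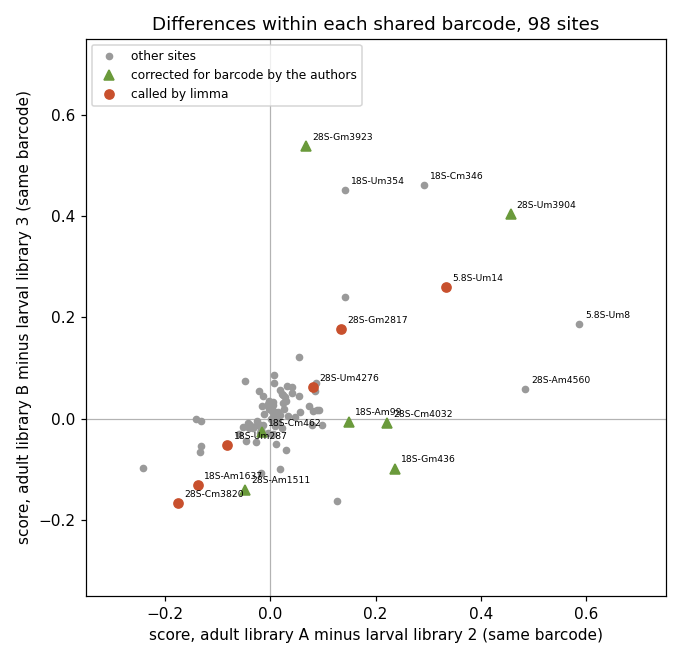
Difference in score of adult library A from larval library 2 (horizontal axis) and of adult library B from larval library 3 (vertical axis), each pair sharing a barcode, at the 98 sites, with called sites and barcode-corrected sites marked. The called sites lie in the upper right and lower left quadrants, and 26 sites lie in the other quadrants.

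At 7 sites the authors' mean of the larva or of adult tail was corrected for the barcode effect. Which library was changed is inferred by matching the authors' means. The 7 corrected larval values are scores from 5′ read ends alone, and the 4 corrected adult values were derived from the authors' mean and SD. A corrected larval mean is therefore partly on 5′ ends, while the uncorrected adult values beside it use both ends. 28S-Um3904 scored 0.970, 0.463 and 0.501 in the larva and 0.919 and 0.904 in adult tail before correction. The corrected larval mean was 0.958 ± 0.0127 (SD, n = 3), so that the difference turned from 0.267 to -0.0467, and the call of 28S-Um3904 with barcode as a block rests on uncorrected values. At 28S-Gm3923 larval scores of 0.764, 0.912 and 0.252 became a mean of 0.930 ± 0.0181 (SD, n = 3), and the difference shrank from 0.243 to 0.0303. At 18S-Am99 and 28S-Cm4032, where larval library 2 scored 0.704 and 0.646 and the other larval libraries at least 0.928, the corrected differences were -0.0500 and -0.0699 in place of 0.0368 and 0.0473. Adult library A, which shares the barcode of larval library 2, was left uncorrected at both. It scored 0.854 and 0.868, below adult library B at 0.934 and 0.961, so these corrected differences do not treat the barcode alike in both stages.

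18S-Gm436, whose human counterpart is guided by SNORD100, went the other way. It scored 0.701, 0.662 and 0.574 in the larva and 0.899 and 0.476 in adult tail, so the adult libraries lay on either side of the larval ones. The corrected adult mean was 0.929 ± 0.0421 (SD, n = 2), and the difference grew from 0.0415 to 0.283 (limma adjusted p = 0.0256). Only adult library B was changed, from 0.476 to 0.959. Larval library 3, which shares its barcode, was left uncorrected, and before correction B was below it (difference -0.0986). The corrected difference thus sets a corrected library against an uncorrected one of the same barcode. At 28S-Am1511 the difference turned from -0.0972 to 0.0571 with the corrected adult mean, and at 18S-Cm462 it moved from -0.0606 to -0.00439. With the corrected scores, limma called 8 sites (8.16%): the 6 above, 18S-Gm436 and 18S-Am1678 (difference -0.151, limma adjusted p = 0.0485). At 18S-Am1678 no larval or adult value was corrected, and the difference was the same before correction. Only the value of 32-cell library 2 was replaced (0.591 to 1), which enters the test through the shared spread. The corrected libraries of the stages did not overlap at 36 sites (36.7%). None of the 6 called sites has a corrected mean in either stage.

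**Figure D5:**
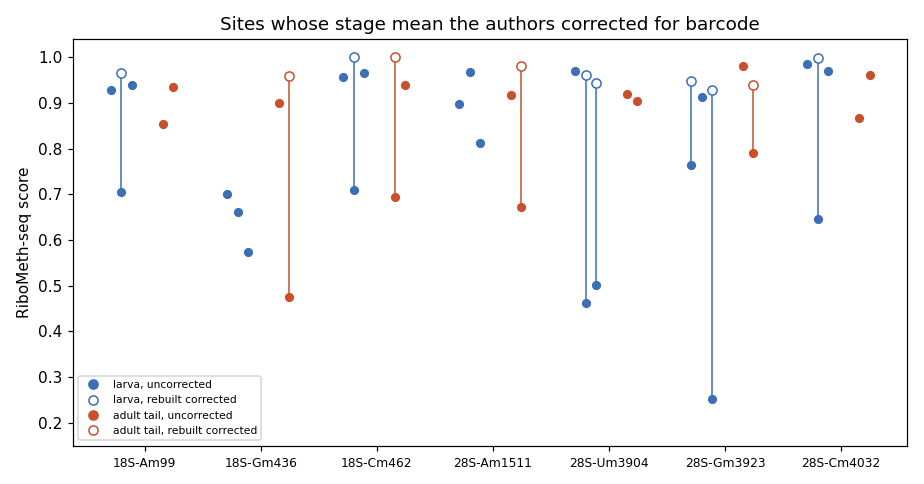
Score (0 to 1, no unit) of each protruding-mouth and adult tail library as computed (filled) and after the inferred barcode correction (open; larval values from 5′ ends alone, adult values derived from the authors' mean and SD), at the 7 sites with a corrected mean in these stages. Corrected larval values of 28S-Um3904 and 28S-Gm3923 move up to the adult level, and the low adult value of 18S-Gm436 moves up away from the larval ones.

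By RNA, the adult mean was above the larval mean at 3 of 3 sites of 5.8S, 21 of 35 of 18S and 34 of 60 of 28S, beside 58 of all 98. The median difference was 0.377 in 5.8S, 0.00706 in 18S and 0.00295 in 28S. By nucleotide, the adult mean was higher at 18 of 22 methylated uridines, 17 of 28 guanosines, 9 of 19 cytidines and 14 of 29 adenosines, with median differences of 0.0195, 0.00446, -0.00659 and -0.00395. Nucleotides are those of the deposited zebrafish sequence, in which 28S-Um2824, a uridine by its human-based name, is a G and counts among the guanosines (difference 0.0122); this site is named with its values in view. The called rises are 2 uridines and 1 guanosine, and the called falls are 1 each of uridine, cytidine and adenosine. The 10 sites of 28S rRNA from 28S-Gm3606 to 28S-Ψm3797 held 0 at which the stages' libraries were separate, beside 33 of all 98 (33.7%), and their differences ran from -0.0291 to 0.0335. Of the 11 sites with a larval mean under 0.75, 10 had a higher adult mean, with a median difference of 0.267. Those 11 were picked by the larval values that enter the difference, so their count carries no test. They include 28S-Um3904, whose difference is that median, and 28S-Gm3923, whose larval means are above 0.75 after barcode correction.

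The background of the score was read from 6018 positions of the 3 rRNAs that the authors do not list. Their median score was 0.143 in the larva and 0.0931 in adult tail. By library it was 0.0584, 0.122 and 0.107 in the larva and 0.0546 and 0.0471 in adult tail, so larval libraries 2 and 3 had the higher background. Adult and larval libraries did not overlap at 1132 of these positions (18.8%), against 33.7% of listed sites, with the adult pair higher at 464 (7.71%) and lower at 668 (11.1%). These shares are not a like comparison. Negative scores were put at 0, and stages with libraries tied at 0 cannot be separate. Such ties were not counted, and they lower the share at positions with scores near 0. Stage means at least 0.1 apart were more frequent at unlisted positions, at 2758 (45.8%), than at listed ones. The median larval standard deviation was 0.111 at unlisted positions and 0.0274 at listed sites. A score of at least 0.75 was seen in both adult libraries at 9 unlisted positions, in all 3 larval libraries at 1 and in all 5 libraries at 0, while the listed sites gave 89, 84 and 80.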

How the data were processed

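Per the labels' protocols, whole-cell RNA was broken by alkali, the fraction of 20 to 40 nt was ligated and read on the Ion Proton platform. The submitters' processing notes name cutadapt 2.0 for trimming and Bowtie2 2.3.4.1 for mapping, with parameters not given in the sources used here. For each rRNA position the deposited sheets give a raw count of reads that start there (5′ ends) and a count that adds the reads ending there (3′ ends). The deposited RiboMeth-seq value per library is a fraction from 0 to 1. The authors' overview gives it as a score per stage, as mean and standard deviation, and per the file headers some of these means carry a correction for barcode. Which means these are was found by comparing overview and sheets (25 means at 11 sites in the 5 stages).

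Scores were computed from the deposited counts as 1 minus the ratio of observed to expected ends, where the expected number averages the weighted means of the 6 left and the 6 right neighbours (weights 1 to 0.5), and negative results were put at 0. The result differed from the deposited fraction by at most 5e-13 wherever both were at hand. The adult columns are numbered otherwise than the titles. The 2 adult columns of summed ends were used as libraries A and B of the stage, and 10 other adult columns were not used. A site needed a flanking mean of at least 10 read ends, which all 98 passed.

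Untransformed scores of all 14 libraries were fitted with limma 3.58.1 in R 4.3.3 on stage means, and the adult minus larval contrast was tested with Benjamini-Hochberg adjustment over the 98 sites at a threshold of 0.05. The fit was also run on simulated scores with the same spread at every site. The spread of the real scores differs between sites, so that run does not bear on the calls. The median over the sites was compared with a two-sided exact permutation test (scipy 1.17.1). Counting intervals are exact Poisson intervals at 95% of the ends at the site, with the expected number held fixed. With no molecular identifiers named in the labels, they cover only the counting error of those ends, and leave out that of the flanking ends. Other steps used Python 3.11.15, numpy 2.4.6, pandas 2.3.3 and matplotlib 3.10.9.

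The sites named were all called sites, the 12 largest rises and 12 largest falls among the others, the 5.8S sites, the A-loop pair, the sites with corrected means, and sites that passed under an alternative only. Unlisted positions were named where every library of a stage reached 0.75. A site outside these rules is marked in the text as named with its values in view. The stages, lists and rules were chosen with earlier results of these data known. Alternatives covered the logit scale limited to 0.01 to 0.99, 2 flanking positions, no limit at 0, other coverage minimums, other fits, the barcode as a block, the corrected scores and leaving out each library. The sequence around 1 called site is not reported here.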

Additional observations from a re-analysis of the deposited data

Results flagged for a closer look

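Outside the 98 listed sites, 10 positions of the late rRNA scored at least 0.75 in every library of a stage. In adult tail these were 18S-G733 (mean 0.805), 28S-G582 (0.813), 28S-G1690 (0.815), 28S-G2585 (0.886), 28S-A3337 (0.808), 5.8S-G12 (0.855), 5.8S-A20 (0.779), 5.8S-G135 (0.875) and 5.8S-C136 (0.813), numbered by the deposited late rRNA. In the larva it was 18S-C1270 (0.850), where the adult mean was 0.670 ± 0.0828 (SD, n = 2).

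These positions were picked by a high score in every library of 1 stage, so a higher score in that stage is partly built in. At 18S-G733 the larval mean, 0.889 ± 0.135 (SD, n = 3), was nevertheless above the adult one. The larval libraries of 28S-G2585 scored 0.815, 0.690 and 0.768, on both sides of the limit. 28S-G582 scored 0.501, 0.406 and 0.499 in the larval libraries and 0.865 and 0.762 in adult tail, and 28S-G1690 scored 0.543, 0.223 and 0.484 against 0.801 and 0.828. The libraries of the stages did not overlap at either, which the way they were picked favours, and neither was tested. The windows are shown with the position in capitals because neither is on the authors' list.
28S-G582: uuccuccgucGgcggugcgcc
28S-G1690: gaaaggguaaGccucgacgag

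5.8S-G12 and 5.8S-A20 lie within 6 positions of 5.8S-Um14, so the low counts at listed sites enter their flanking positions. 5.8S-G12 scored 0.795, 0.518 and 0.222 in the larva and 0.951 and 0.758 in adult tail, and 5.8S-A20 scored 0.863, 0.431 and 0.379 against 0.772 and 0.786, so larval library 1 overlapped the adult pair at both. At 28S-A3337 the larval mean was 0.673 ± 0.202 (SD, n = 3) from both ends and 0.994 ± 0.00433 (SD, n = 3) from 5′ ends alone. The lowest flanking mean was 46.9 read ends at 5.8S-G135, 48.7 at 5.8S-C136 and 58.9 at 18S-G733, where counting error is largest.

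18S-C1270 scored 0.855, 0.834 and 0.861 in the larva and 0.611 and 0.728 in adult tail. The deposited larval sheet has C at this position and the adult sheet has U, and 18S-Cm1272 (named after its values were seen), at 0.553 ± 0.108 (SD, n = 3) in the larva and 0.555 ± 0.0311 (SD, n = 2) in adult tail, lies 24 positions away. Whether the letter bears on the score was not tested.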

How the results depend on the processing

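No paired analysis was possible because the adult columns carry numbers other than the adult titles, so replicate numbers of the labels could not be used as pairs; the shared barcodes served as a block instead. Each of the 6 called sites kept its direction under all 30 alternatives, but many of these could not turn it. Some left the adult and larval scores of these sites as they were. Leaving out an adult or larval library could not turn the direction either, because the stages do not overlap at these sites. The calls depended on the fit. The main fit called 6 sites, 3 higher and 3 lower. The same 6 were called without the limit at 0, with a minimum of 50 read ends, with no minimum and without the corrected sites. These settings say little about the calls, because they left the scores of the 6 sites as they were. With no minimum the fit was the main fit itself, since every site passed the minimum of 10 read ends. The others could act on the 6 sites only through the shared spread or the adjustment. The logit scale gave 4 higher and 0 lower, 2 flanking positions 2 called and 0 lower, and corrected scores on the logit scale 5 higher and 0 lower. Fitting the 2 stages alone, centring each library, a robust prior with a trend in limma and the quasi-binomial model each gave 0 called, 0 higher and 0 lower (unadjusted p under 0.05 at 15, 15, 13 and 5 sites, in that order). Barcode as a block gave 4 called with 1 lower, with corrected scores also 4 with 1 lower, and on the logit scale 9 called with 7 higher. Leaving out the 12-somite stage gave 4 called and 1 lower. Leaving out that stage or the corrected sites, and joining the logit scale with the block or with corrected scores, were chosen after seeing the data.

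Leaving out 1 library at a time gave 0 to 7 called sites, 0 to 4 higher and 0 to 4 lower, a difference between the stage means of the library medians of 0.00453 to 0.0173 (0.00885 with all libraries), and 13 to 17 sites changed by 0.1. There were 0 calls when either adult library, larval library 1, larval library 3 or 32-cell library 3 was left out. There was 1 without egg library 2 (28S-Cm3820) and 2 without larval library 2 (18S-Um354 and 28S-Cm3820).

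None of the sites that turned direction had passed in the main fit, though 28S-Um3904 passed with barcode as a block and 18S-Gm436 with corrected scores. With corrected scores, the same with barcode as a block, and the same on the logit scale, in that order, 28S-Um3904 gave -0.0467, -0.0216 and -0.828, 28S-Am1511 0.0571, 0.0553 and 0.836, 18S-Am99 -0.0500, -0.0567 and -0.660, and 28S-Cm4032 -0.0699, -0.0538 and -1.55. 28S-Cm4032 also gave -0.215 on the logit scale. Over the fits that leave out 1 library, the difference ran from -0.220 to 0.0259 (without adult library B) at 28S-Am1511, from -0.152 to 0.0138 (without A) at 28S-Gm1509, from -0.184 to 0.0626 (without A) at 18S-Cm462 and from -0.170 (without A) to 0.253 at 18S-Gm436. It ran from -0.0187 (without larval library 2; -0.00121 without B) to 0.0491 at 5.8S-Gm75, from -0.0397 (without larval library 2; -0.00337 without B) to 0.0781 at 18S-Am99 and from -0.0632 (without larval library 2) to 0.106 at 28S-Cm4032. The quasi-binomial model, whose values are log odds and not differences in score, gave 0.00425 at 28S-Gm1509, 0.385 at 18S-Cm462 and -0.291 at 18S-Gm436. 28S-Um4272 gave 0.000637 with 2 flanking positions and 18S-Cm462 0.0332 with barcode as a block. The cause of these changes was not tested, except that corrected scores replace the values concerned.

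Depth limits adult library A most: its lowest flanking mean was 61 read ends, and its score at 5.8S-Um14 rests on 3 read ends.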
